A study of Bos taurus with 6 samples.

Results

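The matrix metalloproteases (MMPs), the ADAMTS proteases and the tissue inhibitors of metalloproteases (TIMPs) were taken as all rows whose gene name is MMP, ADAMTS or TIMP followed by its number, which gave 43 of the 32183 listed genes. They comprise 20 MMPs, 19 ADAMTS genes and 4 TIMPs. RNA was measured in 6 cultures of rumen epithelial primary cells (REPC), which were grown from the rumen epithelium of 1 Holstein bull calf, 2 weeks old and fed milk replacer. In the butyrate group, 3 cultures received 5 mM butyrate for 24 h, and the 3 control cultures did not. Because the cells came from 1 animal, the p-values measure the spread between cultures and not between animals.

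MMPs and ADAMTS enzymes are zinc proteases of the extracellular matrix. They are made as inactive precursors, and together they cut collagens, basement membrane, proteoglycans and many cell surface proteins. TIMPs bind the active site and block it, so the level of the inhibitors sets how much of the protease can act. In the rumen, the epithelium lies on a basement membrane and is remodelled as papillae grow. Butyrate is a short-chain fatty acid of rumen fermentation and an inhibitor of histone deacetylases.

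After butyrate, more members rose than fell. TIMP2 and TIMP3, already among the most abundant transcripts of the cells, rose more than 2-fold, the membrane-type proteases MMP15, MMP16, MMP17, MMP24 and MMP25 rose while MMP14 fell, collagenase MMP13 rose 6.22-fold on the scale of FPKM + 0.1, and MMP28, an epidermal protease, fell. Of the 43 members, 30 reached an average FPKM of 0.1 over the 6 cultures, and these were tested with limma on log2(FPKM + 0.1). FPKM values are fragments scaled by transcript length and library size, so levels can be compared between genes per length. MMP17, ADAMTS4 and ADAMTS12 averaged 0.0478, 0.0784 and 0.0631 FPKM in control and reached 0.1 only through their butyrate values. MMP17 and ADAMTS4 are counted below as rises. Of the 30 tested, 16 rose and 5 fell at a Benjamini-Hochberg adjusted p under 0.05, and 9 did not pass. Over all 15813 genes tested, 32.5% rose and 25.9% fell at the same threshold, 58.4% in all, so a call by itself does not set a member apart. The median log2 fold change was 0.72 over the tested members and 0.10 over all genes tested. Here a log2 fold change is the mean of log2(FPKM + 0.1) in butyrate minus that in control, on which changes of weakly expressed genes come out too small. Every adjusted p below is the Benjamini-Hochberg value of that limma fit over all genes tested.

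**Figure D1:**
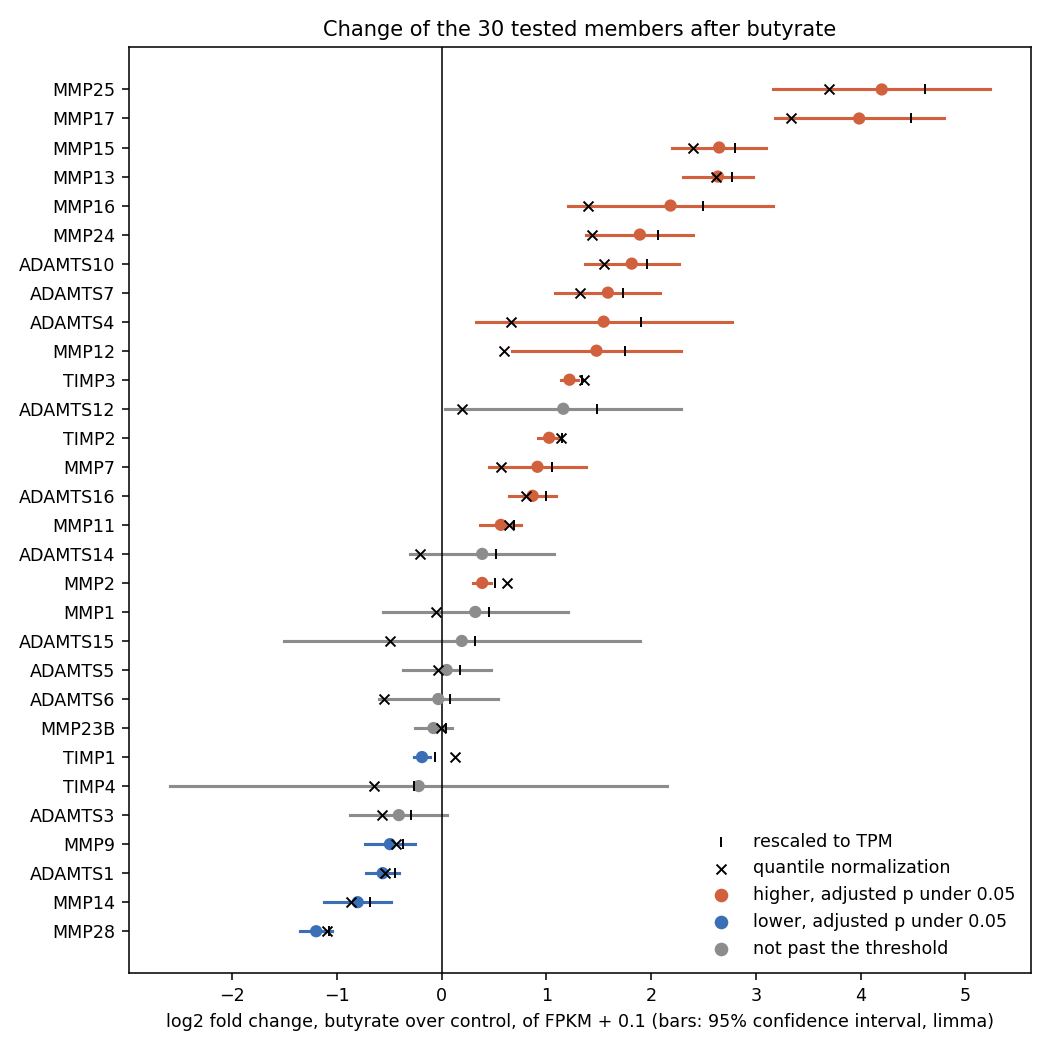
Log2 fold change of FPKM + 0.1, butyrate over control, for the 30 tested members (dots, with 95% confidence intervals from limma), coloured by whether the adjusted p was under 0.05. Bars and crosses in black give the same value after rescaling to TPM and after quantile normalization; 16 dots lie to the right of 0 and 5 to the left among the coloured ones, and TIMP1 is the coloured gene whose cross lies on the other side of 0.

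Differentially expressed genes in the study had to pass Bonferroni adjustment at 0.05 and change by more than 2 on the log2 scale. The study tested with Cufflinks, whereas here its thresholds were applied to the limma fit. Its own calls may therefore differ, and they are not set beside these. By this rule 3 members were upregulated, MMP13, MMP15 and MMP17, and none was downregulated, where 2.46% of all genes tested were up- and 1.51% downregulated. MMP17 met it in none of the alternatives tried, and the number was 0 or 1 (MMP13) whenever a culture was left out. At an unadjusted p under 0.05 in limma 5 members fell. Of these MMP28 alone passed the Bonferroni adjustment, and its log2 fold change of -1.20 was below the required size, while TIMP1, MMP9, MMP14 and ADAMTS1 met neither condition. The summed FPKM per culture was 678035 to 681912 in control and 619401 to 629037 after butyrate. Rescaling each culture to the same sum (TPM) moved the median of all genes to 0.23 and quantile normalization moved it to -0.045. The deposited confidence bounds imply between 5756609 and 6186809 fragments per culture, with no separation of the groups, which is an approximation.

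Among the inhibitors, TIMP2 and TIMP3 rose and TIMP1 did not follow them. TIMP3, which is bound to the matrix and also blocks ADAMTS proteases, lies on chromosome 5 from 71751415 to 71809053 (UMD3.1). Its FPKM was 929, 959 and 958 in the control cultures and 2254, 2120.2 and 2259 in the butyrate cultures, here and below in the order of the replicate numbers. The groups were far apart, and the log2 fold change came to 1.22 ± 0.04 (SE; limma, adjusted p = 7.17e-08). TIMP2, which binds MMP14 at the cell surface and takes part there in the activation of the MMP2 precursor, had an FPKM of 975, 999 and 1053 in control and of 1963, 2155 and 2045 after butyrate. It lies on chromosome 19 from 54079297 to 54131054, and its log2 fold change came to 1.03 ± 0.04 (SE; limma, adjusted p = 3.83e-07). In control all TIMP2 values lay above all TIMP3 values, whereas after butyrate the ranges of these genes overlapped. Among 32181 genes ordered by mean FPKM, TIMP2 went from place 82 to place 22 and TIMP3 from place 92 to place 20.

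TIMP1, on chromosome X from 91232105 to 91236074, is a secreted inhibitor that acts poorly on the transmembrane MMPs such as MMP14. It had an FPKM of 562, 573 and 566 in control and of 499, 499 and 496 after butyrate. The groups did not overlap, but the difference was small, with log2 fold change -0.19 ± 0.03 (SE; limma, adjusted p = 0.000967). This fall depended on the scaling: the log2 fold change was -0.064 after rescaling to TPM (limma, adjusted p = 0.109) and 0.12 with quantile normalization (limma, adjusted p = 0.00779). TIMP4 was close to the lower end of what could be measured, with 1.12, 0.848 and 0.232 in control and 1.14, 1.88 and 0 after butyrate. Its 95% interval of the log2 fold change, from -2.59 to 2.16, allows a large change in either direction.

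The makeup of the inhibitor pool therefore differed between the groups, and a factor applied to a whole culture does not alter such shares. TIMP1 was 22.5% ± 0.433 (SD, n = 3) of the summed TIMP FPKM in control and 10.4% ± 0.120 (SD, n = 3) after butyrate. The TIMP3 to TIMP1 ratio of FPKM was 1.65, 1.67 and 1.69 in control and 4.52, 4.25 and 4.55 after butyrate. The summed FPKM of the 4 TIMPs was 2525 ± 55.3 (SD, n = 3) in control and 4765 ± 42.3 (SD, n = 3) after butyrate. For the 20 MMPs the sums were 560 ± 5.39 (SD, n = 3) and 658 ± 14.4 (SD, n = 3). The ratio of summed TIMP to summed MMP FPKM was 4.45, 4.53 and 4.56 in control and 7.28, 7.33 and 7.12 after butyrate. Transcript sums say nothing of the amount or activity of the proteins.

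**Figure D2:**
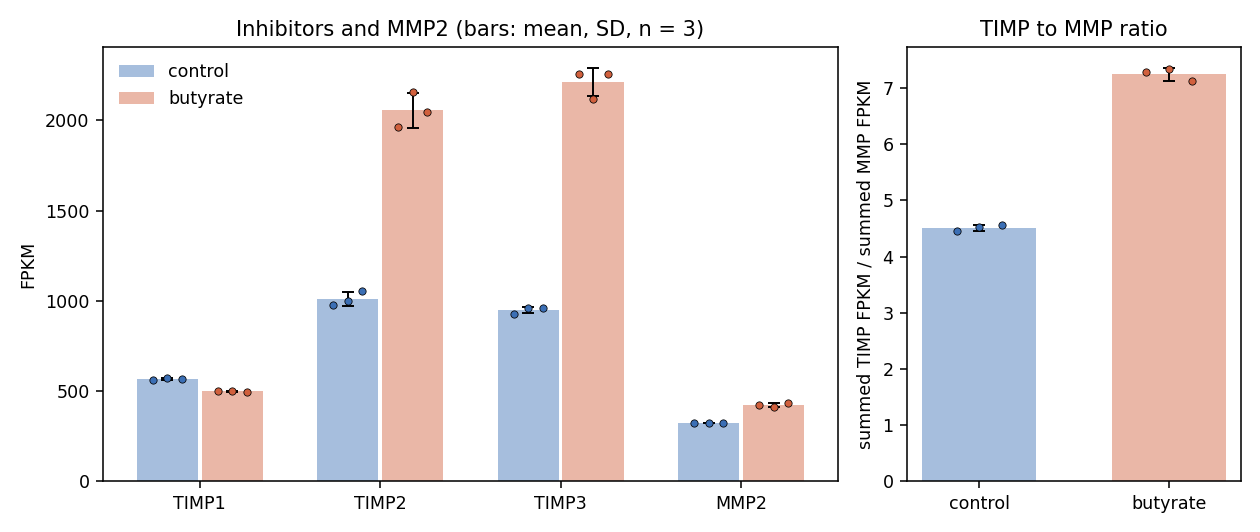
Left, FPKM of TIMP1, TIMP2, TIMP3 and MMP2 in control (blue) and butyrate (orange) cultures; right, summed TIMP FPKM divided by summed MMP FPKM; bars are means, whiskers the SD of 3 cultures and points the cultures. TIMP2 and TIMP3 have means of 1009 and 949 in control and of 2055 and 2211 after butyrate, TIMP1 has 567 and 498, and the ratio goes from 4.51 to 7.24.

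Each TIMP gene shares its stretch of the chromosome with another gene in the annotation of these files. TIMP1 lies inside SYN1, TIMP4 inside SYN2 and TIMP3 inside SYN3, the genes of the synapsins, which coat synaptic vesicles, and CEP295NL lies inside TIMP2. SYN3 was listed at 0, 0.0813 and 0 in control and had 2.77, 3.14 and 2.39 after butyrate, with log2 fold change 4.55 ± 0.34 (SE; limma, adjusted p = 7.26e-06). SYN1 had 2.94, 2.22 and 3.65 in control and 10.5, 9.28 and 7.48 after butyrate, and its log2 fold change came to 1.61 ± 0.20 (SE; limma, adjusted p = 0.000156). SYN2 had a mean of 0.561 ± 0.0913 (SD, n = 3) and 1.43 ± 0.395 (SD, n = 3), log2 fold change 1.19 ± 0.27 (SE; limma, adjusted p = 0.00508). All 3 synapsin genes thus rose, around a TIMP that rose, one that fell slightly and one that did not pass the test. Whether fragments were counted by strand is not given in the sources used here, so reads of a TIMP and of its host gene may not be fully separated. CEP295NL was at 0 in 5 cultures and at 0.0948 in control replicate 1.

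The gelatinases cut denatured collagen and basement membrane collagen. MMP2 was the most abundant protease of the family, at 57.7% ± 0.841 (SD, n = 3) of the summed MMP FPKM in control and 64.2% ± 1.34 (SD, n = 3) after butyrate. Its FPKM was 325, 320.5 and 323 in control and 425, 409 and 432 after butyrate, with log2 fold change 0.39 ± 0.04 (SE; limma, adjusted p = 2.94e-05). The rise was small, separated the groups and stayed under both scalings, at 0.51 after rescaling to TPM and 0.63 by quantile normalization. MMP9 went the other way, from 25.7, 32.4 and 33.5 to 22.4, 21.7 and 20.4. Its log2 fold change came to -0.49 ± 0.11 (SE; limma, adjusted p = 0.00363). MMP9 amounted to 0.0946 ± 0.0137 (SD, n = 3) of the MMP2 level in control and to 0.0510 ± 0.00335 (SD, n = 3) after butyrate.

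The collagenases open the triple helix of fibrillar collagen. Of the 3 listed, MMP13 rose, MMP1 did not pass the test and MMP8, the collagenase of neutrophils, was listed at 0 in all 6 cultures. MMP13 had an FPKM of 5.55, 5.33 and 6.42 in control and of 32.6, 45.9 and 31.9 after butyrate. All 3 butyrate cultures were far above every control culture, and the log2 fold change came to 2.64 ± 0.15 (SE; limma, Benjamini-Hochberg adjusted p = 1.38e-06, Bonferroni adjusted p = 0.000916). MMP1 had 2.32, 1.97 and 0.729 in control and 1.84, 1.66 and 2.28 after butyrate. Control replicate 3 was the low one, the groups overlapped, and the 95% interval of the log2 fold change ran from -0.56 to 1.20.

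The membrane-type MMPs stay on the cell that makes them, MMP14, MMP15, MMP16 and MMP24 by a transmembrane segment and MMP17 and MMP25 by a lipid (GPI) anchor. All 6 passed the test, 5 upward and MMP14 downward, where 58.4% of all genes tested passed, 32.5% upward and 25.9% downward. MMP14, which activates MMP2 and cuts pericellular collagen, had 11.8, 10.1 and 9.61 in control and 5.74, 5.22 and 7.05 after butyrate. The groups did not overlap, and its log2 fold change came to -0.80 ± 0.14 (SE; limma, adjusted p = 0.00113). MMP14 lies on chromosome 10 from 21806054 to 21814533 and shares 3836 bases with RBM23, a gene for an RNA-binding protein. RBM23 also fell, from 16.5 ± 1.18 (SD, n = 3) to 4.25 ± 0.263 (SD, n = 3), and how reads of the shared stretch were divided was not tested.

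MMP15, on chromosome 18 from 26021950 to 26043124, rose from 1.33, 1.21 and 1.01 to 9.89, 7.78 and 6.45. Its lowest butyrate value was well above its highest control value, with log2 fold change 2.65 ± 0.19 (SE; limma, Benjamini-Hochberg adjusted p = 6.50e-06, Bonferroni adjusted p = 0.00854). MMP24, known mainly from the nervous system, rose from 0.559, 0.682 and 0.453 to 2.34, 2.48 and 2.21, with log2 fold change 1.89 ± 0.22 (SE; limma, adjusted p = 0.000112). MMP16 was lower, at 0.169, 0.0302 and 0.231 in control and 0.796, 1.26 and 0.793 after butyrate. For MMP16 the log2 fold change came to 2.18 ± 0.43 (SE; limma, adjusted p = 0.00223). By the confidence bounds its control values rest on about 6, 1 and 8 fragments, so the size of this fold is uncertain.

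The GPI-anchored pair had the largest log2 fold changes of the tested members with the pseudocount of 0.1, an order that was lost with a pseudocount of 1, where MMP13 was highest at 2.47. MMP25, first known from leukocytes, was at 0.131, 0 and 0.272 in control and at 3.92, 4.0 and 3.16 after butyrate. Its log2 fold change came to 4.20 ± 0.45 (SE; limma, adjusted p = 6.48e-05), and it missed the Bonferroni threshold with a Bonferroni adjusted p of 0.171 in limma. MMP17 was at 0.105, 0.0380 and 0 in control and at 1.79, 2.44 and 2.24 after butyrate. Its log2 fold change came to 3.99 ± 0.35 (SE; limma, Benjamini-Hochberg adjusted p = 1.98e-05, Bonferroni adjusted p = 0.0375). Both went from near 0 to a measurable level, so the size of these folds rests on a few control fragments. A pseudocount of 1 lowered the log2 fold change to 2.05 for MMP25 and to 1.59 for MMP17, with both calls kept at an adjusted p of 3.23e-06 and 7.00e-06 in limma. With that pseudocount MMP25 met both of the study's thresholds (limma, Bonferroni adjusted p = 0.00376) and MMP17 did not.

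In control MMP14 was the highest of this class in every culture. After butyrate MMP15 was above it in replicates 1 and 2, and MMP14 was still the highest in replicate 3. MMP14 held 83.7%, 83.7% and 83.0% of the summed FPKM of the 6 membrane-type MMPs in control, and 23.5%, 22.5% and 32.2% after butyrate. The summed FPKM of the other 5 was 2.08 ± 0.192 (SD, n = 3) in control and 17.2 ± 2.06 (SD, n = 3) after butyrate. The FPKM ratio of TIMP2 to MMP14, the pair that meets at the cell surface, was 82.5, 99.1 and 109.6 in control and 342, 413 and 290.2 after butyrate.

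**Figure D3:**
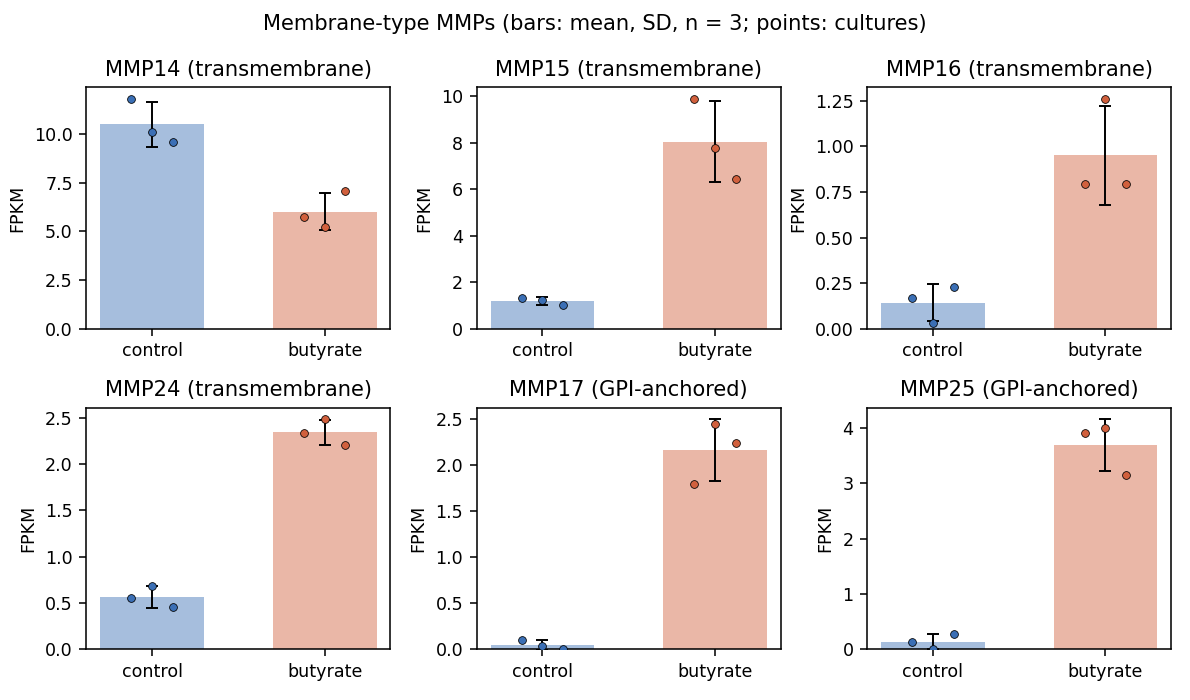
FPKM of the 6 membrane-type MMPs in control (blue) and butyrate (orange) cultures, each panel with its own linear axis from 0; bars are means, whiskers the SD of 3 cultures and points the cultures. MMP14 is the panel in which butyrate is lower (6.00 against 10.5), and in the other 5 every butyrate culture lies above every control culture.

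Of the remaining MMPs that were tested, MMP28 fell, MMP11, MMP7 and MMP12 rose and MMP23B did not pass. MMP28 (epilysin), which is made by keratinocytes and lies on chromosome 19 from 14904889 to 14930774, had an FPKM of 94.9, 91.6 and 92.2 in control and of 36.8, 41.1 and 43.6 after butyrate. It was the second most abundant MMP in control and fell by 1.20 ± 0.07 on the log2 scale (SE; limma, adjusted p = 1.49e-06). Its share of the summed MMP FPKM went from 16.6% ± 0.452 (SD, n = 3) to 6.15% ± 0.417 (SD, n = 3). MMP11 (stromelysin 3), which furin activates inside the cell, rose from 36.2, 40.2 and 44.0 to 55.6, 58.1 and 64.2, with log2 fold change 0.56 ± 0.09 (SE; limma, adjusted p = 0.00051). MMP23B, a protease with a cysteine-rich tail, had 48.7, 54.3 and 52.3 in control and 46.7, 46.3 and 54.4 after butyrate. The groups overlapped for MMP23B, and the 95% interval of its log2 fold change, -0.26 to 0.10, leaves room for no more than a small change on this scaling.

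MMP7 (matrilysin), a small protease of glandular epithelia, rose from 1.53, 1.37 and 1.16 to 2.17, 2.93 and 2.84. The log2 fold change came to 0.91 ± 0.20 (SE; limma, adjusted p = 0.00434). MMP12, an elastase best known from macrophages, went from 0.120, 0.0954 and 0.0906 to 0.569, 0.486 and 0.352, with log2 fold change 1.48 ± 0.35 (SE; limma, adjusted p = 0.00656). The call of MMP12 was lost with quantile normalization, at a log2 fold change of 0.59 (limma, adjusted p = 0.179).

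A run of 8 MMP genes lies within 488 kb of chromosome 15, from 5912037 to 6400327, with 3 other listed genes between them. In order along the chromosome they are MMP13, MMP12, MMP3, MMP1, MMP8, MMP27, MMP20 and MMP7. Such clusters arose by gene duplication and are shared by mammals. MMP13, MMP12 and MMP7 rose, MMP1 did not pass the test, and the other 4 were too low to be tested. MMP3, the stromelysin of connective tissue, and MMP8 were at 0 throughout, MMP27 was above 0 in butyrate replicate 2 alone at 0.0510, and MMP20, the protease of tooth enamel, did not exceed 0.121. Reads shared between such related genes could be counted for the wrong one, and the study used only reads that mapped to 1 place.

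**Figure D4:**
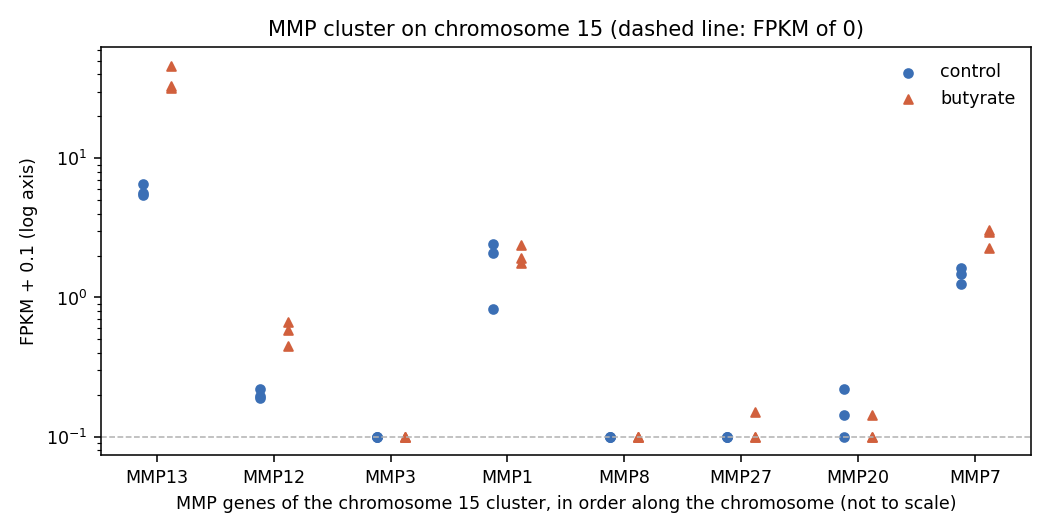
FPKM + 0.1 on a log axis for the 8 MMP genes of the chromosome 15 cluster in their order along the chromosome, with 3 control (blue dots) and 3 butyrate (orange triangles) cultures each. MMP13, MMP12 and MMP7 have all butyrate values above all control values, MMP1 overlaps, and the other 4 lie on or near the line for an FPKM of 0.

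The ADAMTS genes were lower, with a summed FPKM of 42.0 ± 1.59 (SD, n = 3) in control and 46.6 ± 2.50 (SD, n = 3) after butyrate over the 19 genes. Of 11 tested, 4 rose, 1 fell and 6 did not pass, where 32.5% of all genes tested rose and 25.9% fell. Among those that cleave proteoglycans such as versican and aggrecan, ADAMTS1 fell from 19.6, 20.5 and 20.4 to 13.5, 13.95 and 13.5, with log2 fold change -0.56 ± 0.07 (SE; limma, adjusted p = 0.000146). Its neighbour on chromosome 1, ADAMTS5, had 6.03, 8.01 and 6.19 in control and 7.31, 8.39 and 5.38 after butyrate, with overlapping groups. The 95% interval of the log2 fold change of ADAMTS5 was -0.37 to 0.47.

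ADAMTS4, the other main aggrecanase, was at 0.0438, 0.191 and 0 in control and at 0.664, 0.290 and 0.250 after butyrate. Its log2 fold change came to 1.55 ± 0.53 (SE; limma, adjusted p = 0.0345), the weakest of the calls. It was lost with a pseudocount of 0.01 (limma, adjusted p = 0.0534), with quantile normalization (limma, adjusted p = 0.337) and without control replicate 1 or 3 or butyrate replicate 1 or 2 (limma, adjusted p from 0.0615 to 0.106). ADAMTS15 was at 0 in 3 of the 6 cultures and did not exceed 0.306.

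The 3 other ADAMTS genes that rose were ADAMTS10, ADAMTS7 and ADAMTS16. ADAMTS10, which acts on fibrillin microfibrils, had 1.02, 1.57 and 1.27 in control and 5.36, 4.63 and 4.23 after butyrate. The groups were well apart, with log2 fold change 1.81 ± 0.20 (SE; limma, adjusted p = 6.72e-05). ADAMTS7, which cuts cartilage oligomeric matrix protein, had 1.33, 1.94 and 1.15 in control and 5.31, 4.11 and 4.24 after butyrate, and its log2 fold change came to 1.59 ± 0.22 (SE; limma, adjusted p = 0.000293). ADAMTS16 was the most even of them, at 5.53, 4.97 and 5.47 against 9.65, 9.73 and 10.0, with log2 fold change 0.87 ± 0.10 (SE; limma, adjusted p = 9.12e-05). ADAMTS12, the closest relative of ADAMTS7, was at 0.0409, 0 and 0.148 in control and 0.306, 0.149 and 0.287 after butyrate, and its log2 fold change of 1.16 did not pass (limma, adjusted p = 0.0723). LOC101907060 lies inside ADAMTS7, with means of 0.748 in control and 2.39 after butyrate (limma, adjusted p = 0.0658). LOC101902009 lies inside ADAMTS12 and rose from a mean of 1.89 to 3.48 (limma, adjusted p = 0.00804). How reads of these shared stretches were divided was not tested.

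The procollagen N-proteinases ADAMTS2, ADAMTS3 and ADAMTS14 trim the ends of fibrillar procollagens. ADAMTS3 and ADAMTS14 did not pass the test, and ADAMTS2 was too low to be tested with the filter on low values. ADAMTS3, which also processes the lymphatic growth factor VEGF-C, had 5.08, 4.86 and 4.70 in control and 4.70, 2.64 and 3.90 after butyrate. ADAMTS14 lay between 0.479 and 0.942 in control and between 0.778 and 1.14 after butyrate. ADAMTS6 was near 1 in both groups, with 0.790, 1.17 and 1.22 in control and 1.04, 0.903 and 1.12 after butyrate, and a 95% interval of the log2 fold change from -0.60 to 0.54.

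The 13 members that were not tested had a mean FPKM below 0.1. MMP3, MMP8, ADAMTS9, ADAMTS18 and ADAMTS19 were listed at 0 in all 6 cultures. MMP19, MMP20, MMP27, ADAMTS2, ADAMTS8, ADAMTS13, ADAMTS17 and ADAMTS20 were above 0 in at least 1 culture and did not exceed 0.327. ADAMTS2 was listed at 0 in the 3 control cultures and at 0.0829, 0.175 and 0.139 after butyrate, and ADAMTS13, the protease of von Willebrand factor, at 0 in control and at 0.122, 0.0681 and 0.0411 after butyrate. ADAMTS17 had 0.0215, 0.0231 and 0.0222 in control and 0.169, 0.0575 and 0.106 after butyrate. Without the filter on low values these 3 genes passed as higher (limma, adjusted p = 0.00421, 0.0238 and 0.0455), and by the confidence bounds their values rest on at most about 8 fragments in a culture.

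**Figure D5:**
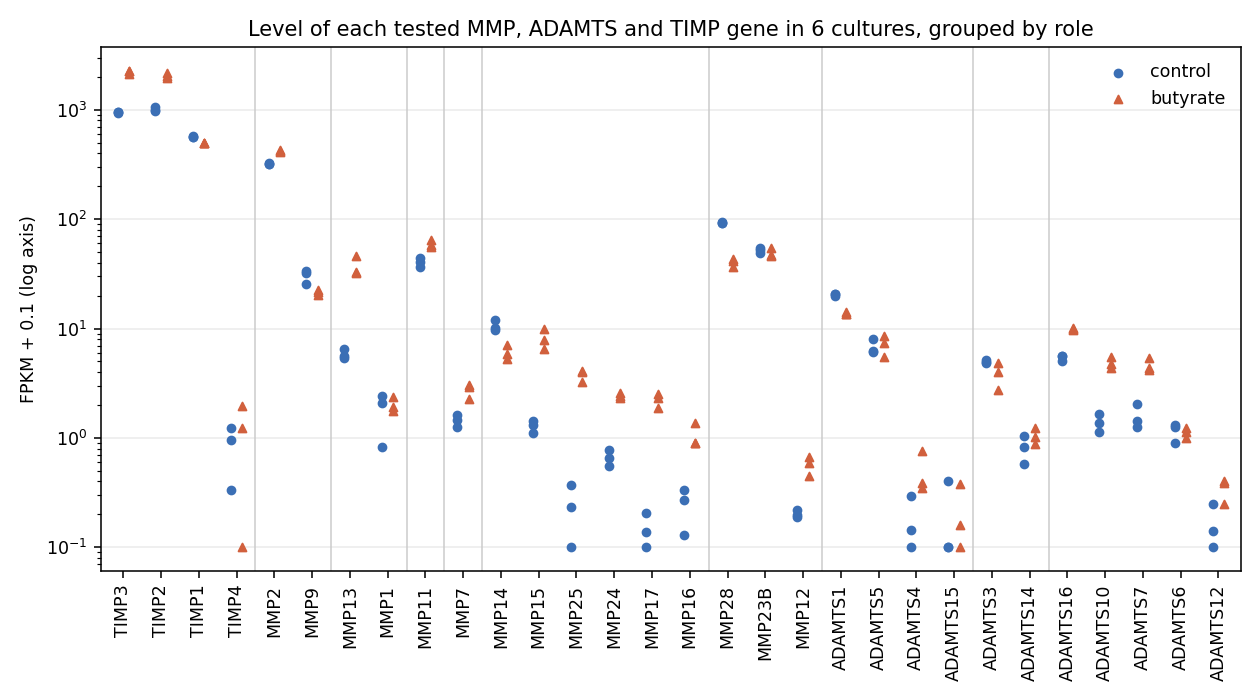
FPKM + 0.1 on a log axis of the 30 tested members, grouped by role from the TIMPs at the left to the ADAMTS genes at the right, with 3 control (blue dots) and 3 butyrate (orange triangles) cultures each. TIMP1, TIMP2, TIMP3 and MMP2 lie at or above 320.5 in every culture, and the genes that rose from below 1, among them MMP25, MMP17, MMP24 and MMP16, stand out in the membrane-type panel.

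Counted over all 43 members, the 3 butyrate values lay above the 3 control values in 20 and below them in 5. Among the 30 tested members these counts were 17 and 5, and over all genes tested the shares were 36.1% and 28.9%. The 17 include MMP17, ADAMTS4 and ADAMTS12, which passed the filter only through their butyrate values. With 3 cultures in each group, the smallest p that an exact permutation test of a single gene can give is 0.1.

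Genes that work with these proteases were taken from lists and read from the same fit. Over all genes tested, 32.5% rose and 25.9% fell, and no list was tested as a set. Of 7 tested ADAMTS-like proteins, which share the ADAMTS tail but have no protease domain, 5 rose by limma and 2, ADAMTSL2 and THSD4, did not pass. PAPLN (papilin) went from 0.0942 ± 0.0264 (SD, n = 3) to 3.70 ± 0.163 (SD, n = 3), and ADAMTSL5 from 7.31 ± 0.309 (SD, n = 3) to 21.5 ± 0.770 (SD, n = 3). ADAMTSL1 and ADAMTSL3 had log2 fold changes of 0.97 and 0.46. Of 8 tested ADAM genes, whose products shed proteins from the cell surface, 4 rose and 2 fell. ADAM15, ADAM9 and ADAM10 rose with log2 fold changes of 1.71, 1.19 and 0.41, and ADAM12 fell from 11.9 ± 1.45 (SD, n = 3) to 4.62 ± 0.407 (SD, n = 3).

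Of 8 tested genes of the plasmin system, which activates several pro-MMPs, 2 rose and 3 fell. The shares over all genes tested were 32.5% and 25.9%, so this mix does not set the system apart. PLAT, the tissue plasminogen activator, rose from 623 ± 29.0 (SD, n = 3) to 1333 ± 30.1 (SD, n = 3), and SERPINE2, an inhibitor of plasminogen activators and thrombin, had a log2 fold change of 0.91. PLAUR, the receptor of the urokinase-type activator, fell from 85.6 ± 5.00 (SD, n = 3) to 54.8 ± 6.07 (SD, n = 3), with log2 fold change -0.65. Of 7 tested genes for other inhibitors and for clearance, 4 rose and 1 fell. A2M, a broad protease trap, rose from 3.34 ± 0.561 (SD, n = 3) to 23.1 ± 4.10 (SD, n = 3), RECK, a membrane-bound MMP inhibitor, had a log2 fold change of 1.39, and CST3, an inhibitor of cysteine proteases, one of 1.10. THBS2, a matrix protein that helps to clear MMP2, had a log2 fold change of 1.83, and its name occurs on more than 1 row, of which the higher was used.

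All 4 tested astacin proteases and their enhancers rose, namely TLL2, PCOLCE2, PCOLCE and BMP1, with log2 fold changes of 1.83, 1.12, 0.72 and 0.42. BMP1 removes the other end of procollagen and PCOLCE speeds it. Of 12 genes linked to MMP transcription and activation, 7 rose and 2 fell, where 32.5% and 25.9% of all genes tested did. FOSL1, an AP-1 subunit, fell from 9.86 ± 1.29 (SD, n = 3) to 1.26 ± 0.225 (SD, n = 3), while JUND, another AP-1 subunit, rose from 325 ± 4.52 (SD, n = 3) to 581 ± 16.2 (SD, n = 3). CLDN1 and ETS2 had log2 fold changes of 0.96 and 0.70. Of the hyalectan substrates of ADAMTS proteases, the 2 tested both rose, BCAN with a log2 fold change of 3.16 and VCAN with 0.75 (limma, adjusted p = 0.0494 for VCAN), from control means of 0.181 and 0.371.

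Several members are known from connective tissue and leukocytes, so markers of other cells were read in the same cultures. In bulk samples, fewer cells of a type and less RNA per cell cannot be told apart. As 32.5% of all genes tested rose and 25.9% fell, a call by itself does not set a marker apart. All 8 epithelial markers were high enough to be tested. Of these 6 rose, KRT5 fell from a mean FPKM of 401 to 356, and CDH1 did not pass, with means of 49.8 and 48.9. The summed FPKM of the 8 went from between 2417 and 2527 to between 5040.5 and 5123. KRT8 and KRT19 made up most of this sum, with means of 1380 and 492 in control and of 1971 and 1953 after butyrate. All 8 tested fibroblast markers of 10 rose, and their summed FPKM went from between 4356 and 4512 to between 6374 and 6715, while PDGFRB and FAP stayed too low to be tested. Of 5 smooth muscle markers, 4 fell and DES rose, and the sum went from between 6468 and 6796 to between 2849 and 3456. ACTA2 and TAGLN made up most of it, with control means of 2752 and 3074. The leukocyte marker PTPRC and the endothelial marker CDH5 were at 0 in all 6 cultures. Of 6 immune markers CD14 and CD68 alone were high enough to be tested, and of 5 endothelial ones PECAM1 and VWF. The sum of CD14 and CD68 ranged from 5.12 to 7.15 in control and from 7.23 to 9.20 after butyrate. CD14, the larger part, overlapped between the groups and did not pass (limma, adjusted p = 0.200), while CD68 rose. PECAM1 and VWF both rose, and their sum went from between 1.95 and 2.07 to between 6.47 and 8.41. The part of such cells in the values of the members was not tested.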

How the data were processed

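RNA-seq libraries of 3 control and 3 butyrate REPC cultures were analysed, grouped by the treatment in the sample labels. Reads were trimmed by the authors (Trim Galore 0.4.1) and aligned with STAR, and those mapped to 1 place were quantified with Cufflinks. The authors deposited an FPKM and its confidence bounds for every gene, and the submitters' processing notes name UMD3.1. Rows were joined by position. Starts were shifted by 1 base to count from 1, and chromosome names were taken from the RefSeq gene table (ARS-UCD2.0, names only), which held 42 of the 43 symbols. Genes with a failed estimate in any culture (2, neither a member) were left out. The values log2(FPKM + 0.1) of 15813 genes, those averaging 0.1 FPKM or more, entered limma 3.58.1 (R 4.3.3, empirical Bayes with trend), with Benjamini-Hochberg or Bonferroni adjustment over all of them. The script was tested on simulated data.

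The fragments behind a value were approximated as the square of 2 times the FPKM over the distance to its upper bound. Counts per gene are unknown, since FPKM values are not counts. The read numbers that the study reports were not used here. Per-culture values are given for members with a mean FPKM of at least 1 or an adjusted p under 0.05. In each related list the genes named are the up to 4 with the largest change among those called without overlap, except 1 gene that is not reported here. The members and lists were chosen with earlier results of these data known. Alternatives were other pseudocounts, filters and scalings, no trend, the replicate number as a block, and each culture left out. No sequences were used here.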

Additional observations from a re-analysis of the deposited data

How the results depend on the processing

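The 16 rises and 5 falls were 13 to 19 rises and 4 to 5 falls under the 8 settings that kept all cultures, and 15 to 16 rises and 5 to 6 falls with a culture left out. The 13 were among 23 members tested at a mean FPKM of at least 1, and the 19 among 38 tested without a filter. Of all 15813 genes, 5144 rose and 4091 fell in the main fit, and 5924 rose and 3387 fell after rescaling to TPM. With quantile normalization 4284 rose and 4679 fell. With a culture left out 4515 to 4745 rose and 3672 to 3820 fell. The number of upregulated genes by the study's thresholds went from 3 to 1 without a filter and to 0 without the trend, and ranged from 0 to 1 in the fits that each left out 1 culture. MMP13 was called wherever the number was above 0, and the cause was not tested. The share of all genes upregulated by these thresholds was taken in the main fit alone, at 2.46%. With the replicate number as a block, 16 members rose, 5 fell and 2 were upregulated by these thresholds, MMP17 being lost, and no adjusted call changed. The same-numbered cultures deviated from their group means with correlations of 0.0228, -0.00431 and 0.00177, which show little pairing by number. Whether such cultures were handled together is not given in the labels. Only replicate 1 correlated best with its own number.

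The direction turned for TIMP4 with a pseudocount of 1 (0.12), for MMP23B (0.045) and ADAMTS6 (0.084) after rescaling to TPM, and with quantile normalization for TIMP1 (0.12), ADAMTS5 (-0.037), MMP1 (-0.058), ADAMTS14 (-0.20) and ADAMTS15 (-0.50). Of these only TIMP1 had passed the test. With a culture left out, the log2 fold change ranged from -1.05 to 1.10 for TIMP4, -0.091 to 0.22 for ADAMTS5, -0.21 to 0.074 for ADAMTS6, -0.34 to 0.87 for ADAMTS15 and -0.16 to 0.62 for MMP1. A pseudocount of 1 lowered MMP24 to 1.10, MMP16 to 0.77, MMP12 to 0.41 and ADAMTS4 to 0.37. Quantile normalization lowered MMP16 to 1.39 and MMP7 to 0.57. ADAMTS12 passed without the trend (limma, adjusted p = 0.0492) and without control replicate 3, at 1.52, and ADAMTS3 passed as lower without butyrate replicate 1, at -0.59. Low FPKM limits what can be said of MMP12, ADAMTS4, ADAMTS12, ADAMTS15 and TIMP4, each with at most about 18 implied fragments in a culture. It also limits the folds of MMP16, MMP17 and MMP25, which had at most about 8 implied fragments in a control culture.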
